A study of Mus musculus with 44 samples.

Results

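The nitric oxide and cyclic GMP signalling genes described here are 7 genes chosen by name: Nos1, Nos1ap, Gucy1a2, Gucy1a3, Gucy1b3, Prkg1 and Prkg2. All 7 were found among the 22682 gene symbols that every count file of the study holds. The study profiled adult mouse medial habenula (MHb) and its target, the interpeduncular nucleus (IPN), by translating ribosome affinity purification, in which an EGFP-tagged ribosomal protein is made in chosen neurons and pulled down with anti-GFP beads. The pulled-down RNA is called IP here (28 libraries), and the RNA of the whole homogenate is called input (16 libraries).

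All mice were on a B6J.Cg background and over 8 weeks old, and each library came from a pool of mice, males and females together unless stated. MHb libraries came from the single transgenic ChAT-TRAP (DW167) line, which tags cholinergic neurons. IPN libraries came from mice that carry a Cre driver, Chrna5-Cre (SN83), Amigo1-Cre (NP231) or Epyc-Cre (KR363), together with Eef1a1-LSL.EGFPL10, a Cre-dependent tagged ribosomal protein; each of these lines thus tags the cells where that driver is active, and controls and nicotine groups carry the same transgenes. The Chrna5 line had 4 inputs and 3 IPs, all at baseline, of which 1 pool was male. The Amigo1 line had 4 inputs (3 baseline, 1 saline pump), 3 control IPs (2 baseline and 1 with a saline minipump for 10 days) and 3 IPs of mice that drank 500 mg/L nicotine tartrate with 0.2% saccharin for 6 weeks. The Epyc line had 4 inputs (3 baseline, 1 saline pump), 5 control IPs (4 baseline and 1 saline pump) and 2 IPs of mice with minipumps that gave nicotine at 24 mg/kg per day, for 10 days in one pool and 11 in the other. The ChAT line had 4 inputs: 2 of saccharin-water mice injected with saline 3 h before collection, and 2 of baseline males, 1 from each side of the MHb. It had 9 IPs without nicotine: 4 labelled baseline, 2 on saccharin water, 2 on saccharin water with the injection and 1 with a saline pump for 14 days. The library names of the baseline IPs say WT and saline, and that of the saline pump IP says wt. Other ChAT library names give no genotype. The ChAT line had 3 IPs on nicotine water with saccharin, of which 1 was also injected with saline.

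Nitric oxide is made by nitric oxide synthases. The neuronal form, encoded by Nos1, is switched on by calcium and calmodulin, and Nos1ap encodes an adaptor that binds it. The gas activates soluble guanylate cyclase, a pair of 1 alpha chain (Gucy1a3 encodes alpha-1, Gucy1a2 alpha-2) and the beta-1 chain (Gucy1b3), which makes cyclic GMP. Cyclic GMP in turn activates the protein kinases encoded by Prkg1 and Prkg2. In the brain, nitric oxide can diffuse from the cell that makes it to cyclase in nearby cells, axon terminals included.

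Levels are given as CPM, the counts of a gene scaled to a fixed library total, with TMM factors that correct library sizes for differences in composition. The files came with gene lists of 3 lengths. The long list (37333 lines per file, of which 5 sum up unassigned reads) was used for all 16 inputs, the 3 Chrna5 IPs and 3 ChAT IPs, namely 2 on saccharin water and 1 of the injected pools. The middle list (32537 lines) was used for every IP of the Amigo1 and Epyc lines, for 2 ChAT IPs without nicotine (an injected pool and the saline pump pool) and for the 3 ChAT nicotine IPs. The short list (24459 lines) was used for the 4 ChAT baseline IPs. Counts of Nos1 and Prkg1 differed between the lists in ChAT IPs, where treatments and pools differ too, so each value is given with its list. Unless stated, p-values come from edgeR's quasi-likelihood test, adjusted over all genes of the fit by Benjamini-Hochberg, and a gene is called at an adjusted p under 0.05. Libraries held 7908401 to 70481509 counts in genes. Driver genes were read as a check of the labels. Chat was at 86.0 ± 4.3 CPM in ChAT IPs and 11.4 ± 2.4 in their inputs (SD, n = 3 and 4 on the long list), and at most 0.114 CPM in IPN IPs. Chrna5 was 1.80 ± 0.17 (log2 ± SE) higher in IP than input of its line and Epyc 3.22 ± 0.37, but neither was particular to its line: Chrna5 was also 2.18 higher in Amigo1, 1.82 in Epyc and 3.18 in ChAT IPs than in their inputs, and Epyc 1.91 higher in Chrna5 IPs. By level, Chrna5 was at 389 ± 109 CPM in Chrna5 IPs against 146 ± 10 in Amigo1 and 114 ± 8 in Epyc IPs (SD). Whole tissue differed in the same direction, with Chrna5 at 107 ± 9.8 CPM in Chrna5 inputs, 31.9 ± 6.9 in Amigo1 and 31.1 ± 18.3 in Epyc inputs. Epyc was at 17.9 ± 5.5 CPM in Epyc IPs against 10.1 ± 4.8 in Chrna5 and 1.34 ± 1.44 in Amigo1 IPs (SD). Amigo1 was 0.62 ± 0.18 higher in its own IPs than in input, and 0.51 to 0.56 higher in those of the other 3 lines. The 3 Amigo1 nicotine IPs stood apart: 10515 to 10933 genes had a count there, against 13367 to 15288 in the Amigo1 control IPs.

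Of the members, Gucy1a3 and Gucy1b3 are neighbours on chromosome 3, on the same strand and 17.7 kb apart. In GENCODE M21 on GRCm38 (mm10), Gucy1b3, now named Gucy1b1, spans chr3:82032006-82074689 and Gucy1a3, now named Gucy1a1, spans chr3:82092427-82145789, both on the minus strand. Their RefSeq promoter windows (GRCm38.p6, 250 bases before to 50 after a start) are shown because the 2 chains form 1 enzyme and both were high in the habenular IPs. The first, chr3:82074662-82074961, is that of Gucy1b1. The second, chr3:82145601-82145900, is one of 2 windows of Gucy1a1. Capitals mark a search on both strands for the cyclic AMP response element half-site TGACG, the GC box GGGCGG, the CCAAT box and the TATA box TATAAA.
Gucy1b1: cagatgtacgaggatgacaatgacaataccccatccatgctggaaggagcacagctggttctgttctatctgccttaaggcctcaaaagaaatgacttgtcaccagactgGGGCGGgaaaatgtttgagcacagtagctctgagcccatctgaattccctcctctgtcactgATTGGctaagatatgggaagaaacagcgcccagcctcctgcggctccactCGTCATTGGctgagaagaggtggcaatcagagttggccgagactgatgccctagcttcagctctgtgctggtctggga
Gucy1a1: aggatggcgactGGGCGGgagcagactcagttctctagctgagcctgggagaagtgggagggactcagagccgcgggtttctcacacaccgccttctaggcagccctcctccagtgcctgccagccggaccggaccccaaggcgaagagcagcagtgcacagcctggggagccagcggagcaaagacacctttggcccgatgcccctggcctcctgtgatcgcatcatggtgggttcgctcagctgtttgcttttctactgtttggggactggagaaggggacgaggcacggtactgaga
The Gucy1b1 window held 1 TGACG, 1 GC box and 2 CCAAT boxes, one of which shares letters with the TGACG match. The Gucy1a1 window held 1 GC box and none of the other 3 motifs, and the other Gucy1a1 window, chr3:82145024-82145323, held none of the 4. Of all 32851 windows of that length, 20.8% held TGACG, 35.7% a GC box, 37.4% a CCAAT box and 13.6% the TATA box.

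Nos1, the neuronal synthase (chr5:117781032-117958840, plus strand), was high in IPN neurons. In the Chrna5 IPs it stood at 1572, 1389 and 1445 CPM, and in the inputs of the same line at 286, 232, 267 and 309 CPM. The groups did not overlap, and all 7 libraries used the long list. Nos1 was 5.14-fold higher in IP than in input (2.36 ± 0.13, log2 ± SE, adjusted p = 2.19e-08), and in all 3 IPs above every input. In the ChAT line, levels were lower: 101, 88.9 and 94.9 CPM in the 3 IPs on the long list, against 37.7, 28.8, 37.6 and 31.2 CPM in the inputs. These groups did not overlap either, with a difference of 2.79-fold (1.48 ± 0.14, adjusted p = 1.97e-05). Between the IPs of both lines, Chrna5 was 15.4-fold above ChAT (3.95 ± 0.15, adjusted p = 1.59e-07). The Chrna5 mice were at baseline and the mice of these 3 ChAT IPs drank saccharin water, so line and treatment cannot be told apart between them. Of the 4 ChAT inputs, 2 are of baseline males, so fraction and treatment partly coincide in ChAT IP against input. This holds for every member. Whole tissue showed the same order: the 12 IPN inputs ran from 131 to 309 CPM, all above the 4 MHb inputs, a 6.63-fold difference (2.73 ± 0.20, adjusted p = 6.05e-11).

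The count of Nos1 differed between the gene lists of the files. Within the ChAT IPs without nicotine, the 3 on the long list held 94.9 ± 5.9 CPM and the 4 on the short list 86.6 ± 0.3 CPM (SD), while the 2 on the middle list held 14.5 and 12.8 CPM. The 3 nicotine IPs, also on the middle list, held 15.8, 9.70 and 10.4 CPM. No library on the middle list came near the other ChAT IPs. With nicotine as a term, Nos1 was 6.89-fold lower on the middle than on the long list (-2.78 ± 0.24, adjusted p = 8.87e-05). Between the short and the long list the difference was -0.12 ± 0.12 (adjusted p = 0.76). Prkg1 moved the other way, 2.37-fold higher on the middle list (1.24 ± 0.20, adjusted p = 0.0033) and 2.68-fold higher on the short list (1.42 ± 0.22, adjusted p = 0.0025). Thus 2 of 7 members were called between the middle and the long list, where 5.84% of 15010 genes tested were, and 1 of 7 between the short and the long list, where 6.37% of 14413 were. The other 5 members were not called in either comparison, though Gucy1a2 was 0.88 ± 0.27 and 1.46 ± 0.41 higher on the middle and the short list than on the long one (adjusted p = 0.11 and 0.077). The 2 injected saccharin pools, of 4 mice each, had the same treatment and different lists: Nos1 was at 101 CPM on the long and 14.5 CPM on the middle list. Otherwise treatments differ along with the lists, and pools differ throughout. The part of each was not tested.

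**Figure D1:**
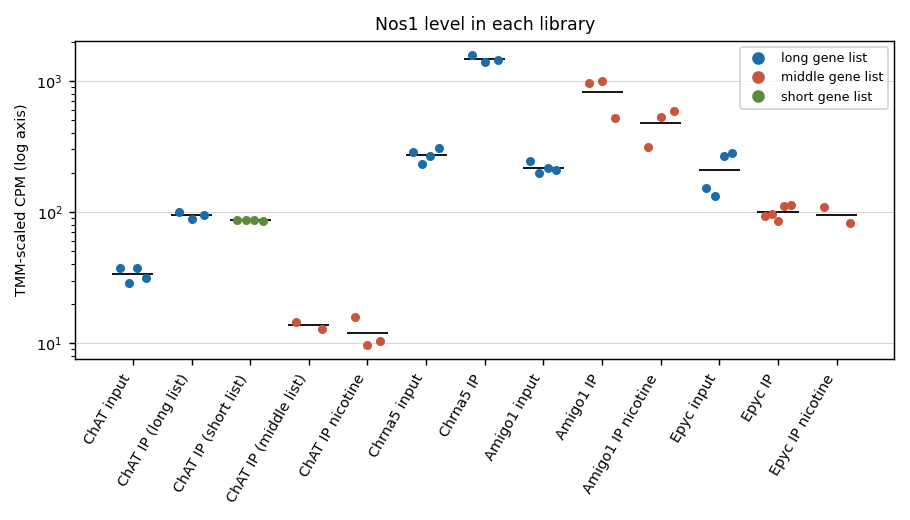
Level of Nos1 in each of the 44 libraries, as TMM-scaled CPM on a log axis, by line, fraction and treatment; the colour is the gene list of the file and the bar is the group mean. The Chrna5 IPs lie at 1389 to 1572 CPM, and the 5 ChAT IPs on the middle list at 9.70 to 15.8 CPM lie below every other ChAT library.

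Amigo1 and Epyc IPs could be compared with each other on the same middle list. Nos1 was at 961, 1000 and 524 CPM in the 3 Amigo1 control IPs and between 86.0 and 114 CPM (median 97.2) in the 5 Epyc control IPs. The lowest Amigo1 library was the saline pump pool, and it was still above every Epyc library. Amigo1 exceeded Epyc 8.29-fold (3.05 ± 0.19, adjusted p = 3.55e-07). Set against the 2 ChAT IPs on this list, Nos1 was 61.6-fold higher in Amigo1 (5.94 ± 0.37, adjusted p = 7.84e-05) and 7.35-fold higher in Epyc IPs (2.88 ± 0.21, adjusted p = 2.47e-08). Within the middle list the order of Nos1 was thus Amigo1, Epyc, ChAT, with no overlap between the lines. Within the long list it was Chrna5 IP, then the IPN inputs, ChAT IP and ChAT input, and the inputs of the 3 IPN lines overlapped one another.

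Across the gene lists, the direction for Nos1 turned with the handling. As counted, Epyc IPs were below their inputs of 131 to 280 CPM (-1.10 ± 0.20, adjusted p = 0.00054). With a term for the gene list, which takes the shift seen in ChAT IPs, they were above (1.73, adjusted p = 0.0048). Amigo1 IPs were above their inputs of 200 to 244 CPM as counted (1.90 ± 0.20, adjusted p = 0.00013) and with the term (4.71, adjusted p = 5.28e-06). Chrna5 IPs were 1.98 ± 0.31 below Amigo1 IPs with the term (adjusted p = 0.0048) and 0.81 above without it (adjusted p = 0.061). Without the ChAT saline pump IP, that call was lost (adjusted p = 0.058). The term assumes the same shift in habenular and interpeduncular neurons, which was not tested, so the order of Nos1 between Chrna5 and Amigo1 cells is not given here.

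Nos1ap, the adaptor that binds neuronal nitric oxide synthase (chr1:170302668-170589861, minus strand), was low in cholinergic habenular cells. The 3 ChAT IPs on the long list held 3.28, 2.66 and 4.93 CPM, and the 4 inputs 25.1, 31.4, 32.6 and 25.7 CPM. No IP came near an input, and the adaptor was 7.87-fold lower in IP (-2.98 ± 0.25, adjusted p = 8.94e-06). All 9 ChAT IPs without nicotine lay between 1.94 and 11.9 CPM. In the Chrna5 line IPs held 34.4, 32.1 and 45.5 CPM and inputs 26.1 to 29.1 CPM, a difference of 0.36 ± 0.18 that was not called (adjusted p = 0.15). Epyc IPs had the highest levels, 73.0 to 87.5 CPM (median 81.7), against 57.7, 47.9 and 37.5 CPM in Amigo1 IPs on the same list. Amigo1 was lower than Epyc (-0.73 ± 0.19, adjusted p = 0.028), but that call was lost in 7 of the 8 fits that left out 1 library, with adjusted p up to 0.075. The level in ChAT IPs was exceeded 13.9-fold by Epyc IPs (3.80 ± 0.24, adjusted p = 6.86e-09) and 8.43-fold by Amigo1 IPs (3.08 ± 0.39, adjusted p = 0.0018). On the long list, it was exceeded 10.2-fold by Chrna5 IPs (3.35 ± 0.30, adjusted p = 2.24e-05). Nos1ap and Nos1 therefore had different orders: among IPs on the middle list Nos1 was highest in Amigo1 cells and Nos1ap in Epyc cells.

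Gucy1a3 and Gucy1b3 were highest in the habenular IPs, and Gucy1a2 was not. Gucy1a3 was at 1007, 1019 and 822 CPM in the 3 ChAT IPs on the long list and at 127, 114, 122 and 114 CPM in the inputs. That is 7.90-fold higher in IP (2.98 ± 0.13, adjusted p = 2.67e-07), with every IP above every input. Its level was close to that on the other lists, at 1079, 1064, 740 and 703 CPM on the short list and 1048 and 730 CPM on the middle list. Gucy1b3, which both alpha chains need to form the enzyme, was at 270, 278 and 248 CPM in the same 3 IPs and at 84.8, 126, 142 and 126 CPM in the inputs, 2.21-fold higher in IP (1.14 ± 0.16, adjusted p = 0.00024). Gucy1a2 (chr9:3532778-3894736, plus strand) went the other way, at 36.8, 61.9 and 54.2 CPM in IP against 85.9, 157, 137 and 124 CPM in input, 2.45-fold lower (-1.29 ± 0.24, adjusted p = 0.0014). The other 6 ChAT IPs without nicotine held more Gucy1a2, 114 and 71.6 CPM on the middle list and 266, 113, 83.8 and 93.2 CPM on the short list. With all 9 IPs and no term for the list, the difference from input was -0.40 (adjusted p = 0.43).

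**Figure D2:**
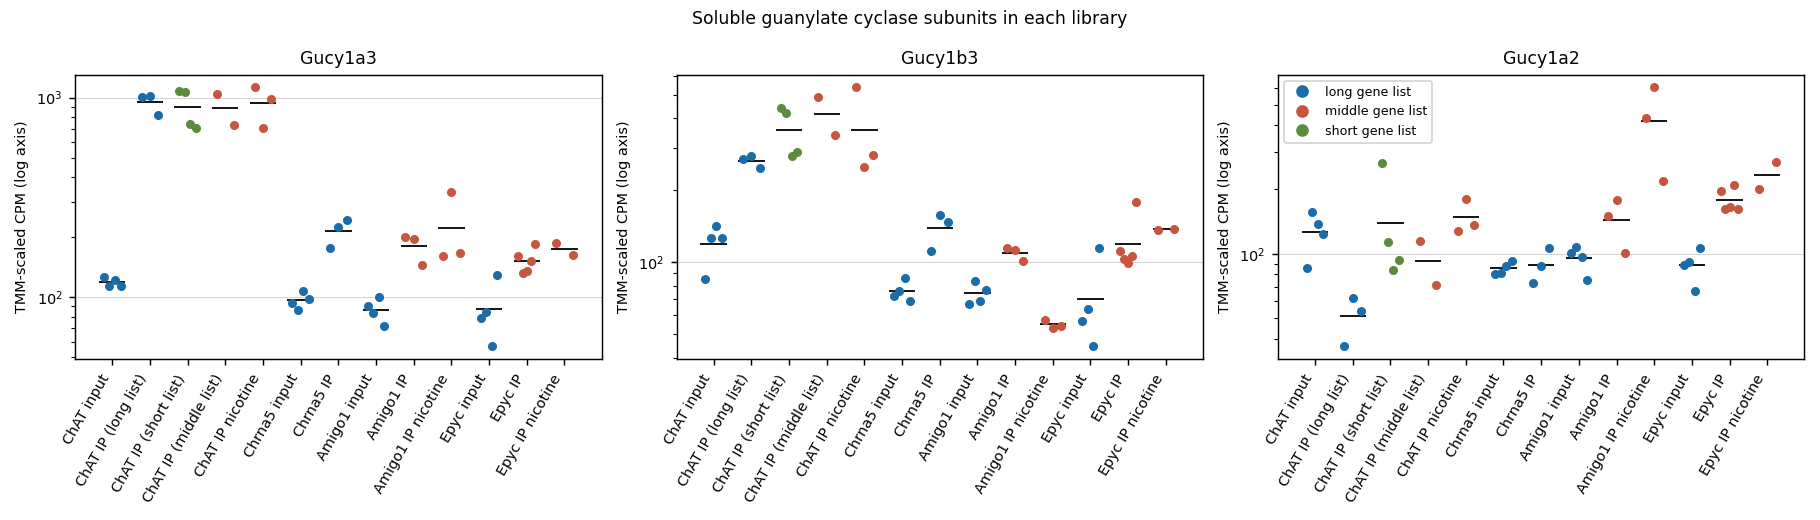
Levels of the 3 soluble guanylate cyclase genes in each library, as TMM-scaled CPM on log axes; colours give the gene list of the file and bars the group mean. The 12 ChAT IPs lie at 703 to 1125 CPM for Gucy1a3, above all other libraries, while Gucy1a2 shows no such step.

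The alpha-1 chain also dominated per length in these cells. After division by the exon length of each gene (GENCODE M21), Gucy1a3 made 93.5 to 96.3% of the summed alpha levels per kb in the ChAT IPs on the long list, and 41.0 to 58.5% in the ChAT inputs. In the Chrna5 IPs the share was 68.8 to 71.2%, above the 50.4 to 54.2% of their inputs. In Amigo1 control IPs it was 51.2 to 58.0% and in Epyc control IPs 40.8 to 52.1%, so the 2 alpha genes stood near parity there. Per kb, Gucy1a3 was 1.87 to 2.10 times Gucy1b3 in the ChAT IPs on the long list and 0.49 to 0.84 times in the inputs. On the other lists ChAT IPs had a lower share of alpha-1, 89.8 to 90.7% on the middle and 79.5 to 89.95% on the short list, and ratios to Gucy1b3 of 1.21 and of 1.38 to 1.49. These shares and ratios are descriptions of levels, without a test.

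In IPN neurons Gucy1a3 and Gucy1b3 were less abundant than in ChAT IPs. Gucy1a2 was more abundant in Epyc than in ChAT IPs on the middle list, and in Chrna5 than in ChAT IPs on the long list. In the Chrna5 line, Gucy1a3 was at 178, 226 and 245 CPM in IP against 86.8 to 108 CPM in input (2.15-fold, 1.10 ± 0.15, adjusted p = 7.18e-05). Gucy1b3 there was at 111, 157 and 147 CPM against 69.1 to 86.2 CPM (1.75-fold, 0.81 ± 0.15, adjusted p = 0.0014). Gucy1a2 did not differ detectably, at 72.9, 87.3 and 106 CPM against 80.6 to 92.6 CPM (-0.00 ± 0.16, 95% interval -0.31 to 0.30). Compared with ChAT IPs, Chrna5 IPs had 4.41-fold less Gucy1a3 (-2.14 ± 0.17, adjusted p = 1.03e-05), 1.92-fold less Gucy1b3 (-0.94 ± 0.17, adjusted p = 0.0019) and 1.72-fold more Gucy1a2 (0.79 ± 0.24, adjusted p = 0.028). The Gucy1a2 call was lost in 3 of 6 fits without 1 library. On the middle and short lists, ChAT IPs without nicotine held 71.6 to 266 CPM of Gucy1a2. All 9 ChAT IPs without nicotine averaged 99.5 ± 67.7 CPM (SD), against 88.8 ± 16.7 CPM in Chrna5 IPs.

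On the middle list, Amigo1 IPs held 4.84-fold less Gucy1a3 and 3.73-fold less Gucy1b3 than ChAT IPs (-2.28 ± 0.22 and -1.90 ± 0.21, adjusted p = 0.00055 and 0.00086). Epyc IPs held 5.81-fold and 3.46-fold less (-2.54 ± 0.16 and -1.79 ± 0.21, adjusted p = 4.93e-09 and 5.22e-06). Gucy1a2 went the other way, 1.93-fold higher in Epyc than in ChAT IPs (0.95 ± 0.19, adjusted p = 0.0012), and its difference in Amigo1 IPs was 0.65 ± 0.31 (adjusted p = 0.21). Between Amigo1 and Epyc IPs no chain was called: the differences were 0.25 ± 0.16 for Gucy1a3, -0.12 ± 0.20 for Gucy1b3 and -0.32 ± 0.19 for Gucy1a2. Amigo1 IPs held 201, 195 and 146 CPM of Gucy1a3, within the range of 132 to 185 CPM in Epyc IPs only for the pump pool. Whole MHb exceeded whole IPN for all 3 chains, by 1.38-fold for Gucy1a3, 1.69-fold for Gucy1b3 and 1.46-fold for Gucy1a2 (adjusted p = 0.011, 0.00048 and 0.0014). In bulk samples such as inputs, fewer cells of a type and less RNA per cell cannot be told apart.

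Prkg1, the first cGMP-dependent kinase (chr19:30564489-31765033, minus strand), was high in Amigo1 cells. It was at 221, 229 and 160 CPM in Amigo1 control IPs and at 19.2 to 39.7 CPM (median 30.3) in Epyc control IPs, all on the middle list. The lines did not overlap, and Amigo1 was 6.79-fold higher (2.76 ± 0.22, adjusted p = 3.39e-06). Mural cell markers differed in the same direction, summing to 31.2 to 37.9 CPM in Amigo1 and 2.85 to 10.4 CPM in Epyc control IPs, with 1 of 7 tested called, and their part was not tested. The ChAT IPs on this list held 27.6 and 26.5 CPM, 7.64-fold less than Amigo1 (2.93 ± 0.25, adjusted p = 0.00028). Against these ChAT IPs, 4 of 6 astrocyte and 4 of 6 oligodendrocyte markers were also called higher in Amigo1 IPs, and mural markers summed to 2.46 and 6.13 CPM in the ChAT IPs. Epyc and ChAT IPs differed by 0.15 ± 0.26 (adjusted p = 0.69). Against their own inputs of 17.1 to 23.8 CPM, Amigo1 IPs were 9.76-fold higher as counted (3.29 ± 0.18, adjusted p = 4.45e-06), and still higher with the term for the list (2.06, adjusted p = 0.00061).

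Prkg1 was also raised in the Chrna5 IPs, at 63.8, 50.9 and 46.9 CPM against 20.7, 21.7, 11.5 and 10.8 CPM in input (3.18-fold, 1.67 ± 0.27, adjusted p = 0.00034). On the same long list the ChAT IPs held 11.8, 11.0 and 11.8 CPM, so that Chrna5 exceeded ChAT 4.64-fold (2.21 ± 0.20, adjusted p = 2.68e-05). With the list as a term, Chrna5 IPs were 4.22-fold above Epyc IPs (2.08 ± 0.33, adjusted p = 0.0039). Without the term that difference was 0.83 (adjusted p = 0.018). With the term, their difference from Amigo1 IPs was -0.70 ± 0.35 (adjusted p = 0.35). Without it, Chrna5 was 1.93 below Amigo1 (adjusted p = 0.00056). In the ChAT line Prkg1 was slightly lower in IP than in inputs of 13.9 to 18.2 CPM (-0.45 ± 0.16, adjusted p = 0.043), a call lost in 5 of 7 fits without 1 library.

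Prkg2, the second kinase (chr5:98929773-99037351, minus strand), was highest in whole MHb. The 4 ChAT inputs held 30.0, 35.2, 31.5 and 32.7 CPM, above all 12 IPN inputs, which held 10.0 to 25.8 CPM (2.21-fold lower in IPN, -1.14 ± 0.16, adjusted p = 5.25e-06). ChAT IPs on the long list held 5.01, 8.97 and 12.7 CPM, 3.57-fold less than the inputs (-1.83 ± 0.29, adjusted p = 0.00048). Prkg2 was not called between IP and input in the IPN lines: the Chrna5 IPs held 13, 11.4 and 14.6 CPM against 10.0 to 16.3 CPM (-0.11 ± 0.25, adjusted p = 0.78). Amigo1 control IPs held 4.96, 6.85 and 0.143 CPM, the last being 1 count in the saline pump pool. Between Amigo1 and Epyc IPs the difference was -1.62 ± 0.68 (adjusted p = 0.17), between Amigo1 and ChAT IPs -0.52 ± 1.10 (adjusted p = 0.80), and between Chrna5 and ChAT IPs 0.53 ± 0.35 (adjusted p = 0.28). Epyc control IPs held 7.35 to 19.1 CPM, and Epyc exceeded ChAT on the middle list 2.17-fold (1.12 ± 0.38, adjusted p = 0.035), lost in 4 of 7 fits without 1 library. Per kb of exon, Prkg1 made 94.3 to 99.8% of the summed kinase level in Amigo1 control IPs and 40.8 to 67.1% in Epyc control IPs.

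**Figure D3:**
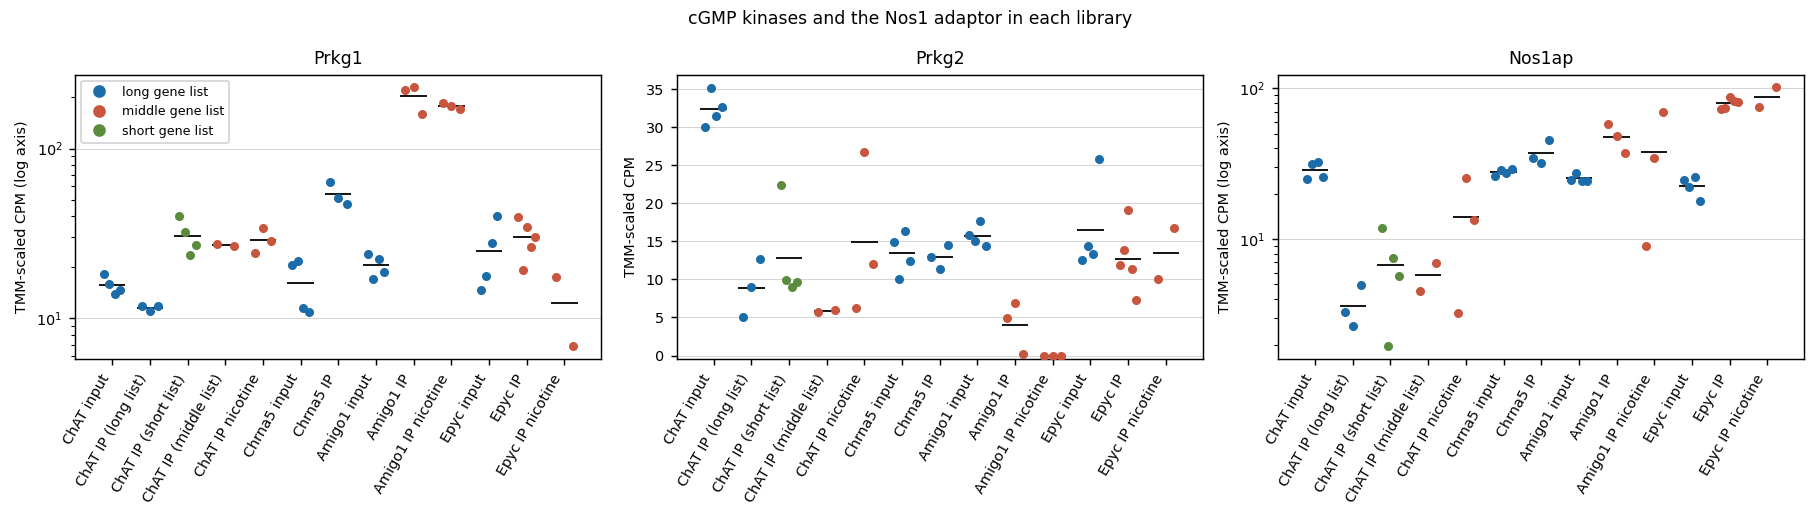
Levels of Prkg1 (log axis), Prkg2 (linear axis, since 3 libraries are at 0) and Nos1ap (log axis) in each library, as TMM-scaled CPM; colours give the gene list of the file and bars the group mean. Prkg1 is highest in Amigo1 IPs (160 to 229 CPM without nicotine), Prkg2 in ChAT inputs (30.0 to 35.2 CPM) and Nos1ap in Epyc IPs (73.0 to 87.5 CPM without nicotine).

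In counts, 4 of the 7 members were called between Chrna5 IP and input, all higher in IP, where 33% of 14385 genes were called, 14.2% higher and 18.8% lower. All 7 were called between ChAT IP and input, 3 higher and 4 lower, where 51.1% of 15347 genes were called, 23.9% higher and 27.2% lower. Between Chrna5 and ChAT IPs 6 of 7 were called, where 32.7% of 13917 genes were; between Amigo1 and ChAT IPs 5 of 7, where 15.8% of 13800 were; and between Epyc and ChAT IPs 6 of 7, where 33.3% of 14098 were. Between Amigo1 and Epyc IPs 3 of 7 were called against 8.05% of 13466 genes, and between IPN and MHb inputs 5 of 7 against 32.8% of 15490. With the list as a term, 1 of 7 was called between Chrna5 and Amigo1 IPs, where 0.278% of 15123 genes were, and 1 of 7 between Chrna5 and Epyc IPs, where 0.205% were.

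Between Amigo1 IP and input, where list and fraction coincide, 5 of 7 were called as counted (30.6% of 14506 genes) and 3 with the term (8.83% of 15654 genes), namely Nos1, Gucy1a3 (1.14, adjusted p = 0.019) and Prkg1. Between Epyc IP and input 5 of 7 were called as counted (36.1% of 14064 genes) and 1, Nos1, with the term (8.43% of 15569 genes). As counted, Nos1ap, Gucy1a2, Gucy1a3 and Gucy1b3 were higher in Epyc IPs by 1.77 ± 0.17, 0.97 ± 0.15, 0.76 ± 0.20 and 0.73 ± 0.25. The Gucy1b3 call was lost in 4 of 9 fits without 1 library (adjusted p up to 0.092). With the term, these differences were 1.14, 0.13, 0.88 and 0.11, with adjusted p from 0.11 to 0.93. Gucy1b3 in Amigo1 IPs went from 0.54 ± 0.14 (adjusted p = 0.015) to -0.10 (adjusted p = 0.90).

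**Figure D4:**
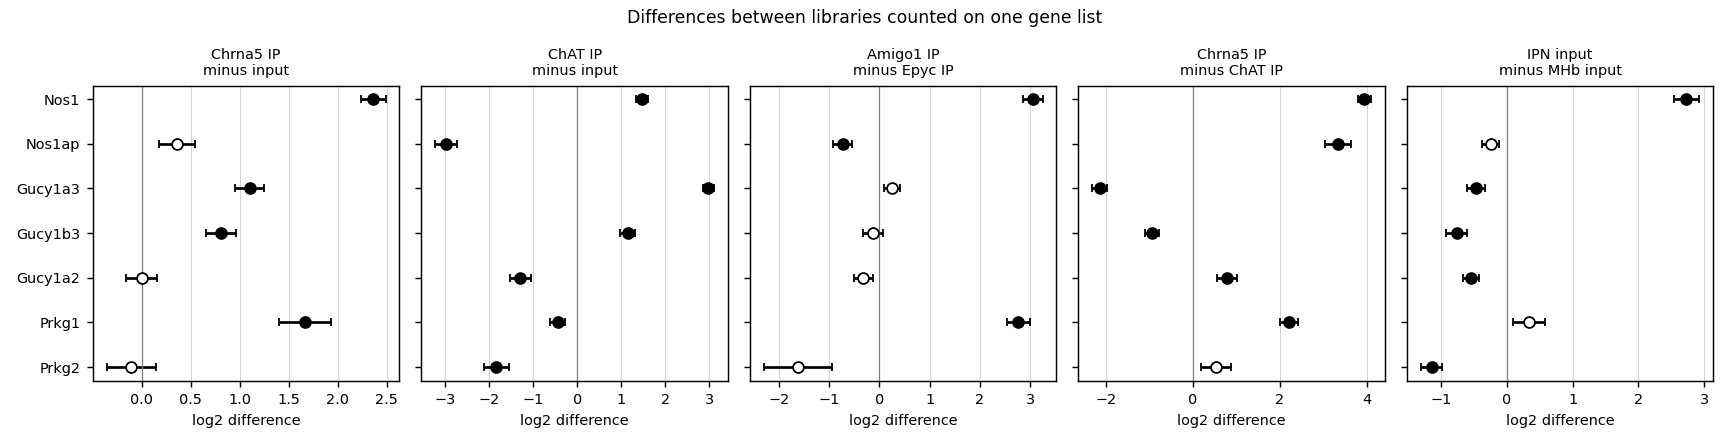
Log2 difference with its standard error for each member in 5 of the comparisons made within one gene list; filled points have an adjusted p under 0.05 by edgeR. Nos1 is to the right of 0 in every panel, while Gucy1a3 is at 2.98 in ChAT IP against input and at -2.14 in Chrna5 IP against ChAT IP.

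Pools that gave both an IP and an input allow paired fits. In the Chrna5 line (3 pairs) the same number of members, 4, was called with the pool as a replicate block, and in the Epyc line 5. In the ChAT line, where 1 of the 2 paired IPs used the middle list, 4 were called in paired pools with and without the block; Nos1 was then 0.10 (adjusted p = 0.96) with the block. In the Amigo1 line the block brought in Gucy1a2 (0.60, adjusted p = 0.045) and lost Gucy1b3 (0.59, adjusted p = 0.052). Without the Amigo1 saline pump IP, Gucy1a2 (0.75, adjusted p = 0.00053) and Prkg2 (-1.45, adjusted p = 0.00029) were called as well. Over all genes, the alternative fits, paired ones among them, called 3905 to 5701 genes in the Chrna5 line (4740 in the main fit). They called 3401 to 9028 in the ChAT line (main 7839), 1382 to 6274 in Amigo1 (main 4442) and 1313 to 5630 in Epyc (main 5072). Amigo1 fits without 1 library called 3091 to 6467.

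Markers of glia fell in the IPs of both lines: all 6 astrocyte and all 6 oligodendrocyte markers were called lower, and none was at 0. Astrocyte markers summed to 32.3 to 55.4 CPM in Chrna5 IPs against 716 to 963 CPM in their inputs, and to 21.8 to 47.4 against 250 to 301 CPM in the ChAT line on the long list. Oligodendrocyte markers summed to 167 to 388 CPM in those ChAT IPs against 2404 to 2764 CPM in input. The 4 members that were lower in ChAT IPs, Nos1ap, Gucy1a2, Prkg1 and Prkg2, moved in that direction with them. The markers taken for IPN neurons (Sst, Pax7, Otp, Slc32a1, Gad1 and Gad2) moved with them too, 5 of 6 being called lower. They summed to 54.1 to 146 CPM in those IPs and 229 to 574 CPM in the MHb inputs. Which cells of the MHb samples hold them was not tested. Endothelial markers did not, at 14.4 to 33.4 against 9.57 to 14.7 CPM, with 2 of 6 called higher. The part of such cells in the 4 results was not tested.

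Other genes of the pathway were taken from 4 lists. Of cGMP-hydrolysing phosphodiesterases, which end the signal, 3 rose and 8 fell in ChAT IP against input among 14 tested (median -1.30, all genes -0.02). Pde2a, which cyclic GMP stimulates, was at 1388 ± 37 CPM in IP and 129 ± 8 in input (3.42 ± 0.11, adjusted p = 2.51e-07), and Pde1a, a calmodulin-activated form, at 868 ± 76 and 104 ± 4 (3.06 ± 0.13, adjusted p = 2.51e-07; SD, n = 3 and 4). In Chrna5 IP against input, 5 rose and none fell among 11 tested (median 0.58, all genes 0.01), with Pde3a, which cyclic GMP inhibits, at 164 ± 35 against 58.3 ± 9.1 CPM (1.43 ± 0.18, adjusted p = 3.49e-05). Between Amigo1 and Epyc IPs 3 were higher and 1 lower of 11 (median 0.47). Pde5a, specific for cyclic GMP, was at 48.7 ± 9.0 CPM in Amigo1 (n = 3) and 0.81 ± 0.53 CPM in Epyc IPs (n = 5), a difference of 5.92 ± 0.46 (adjusted p = 2.66e-06). Prkg1 was higher in the same line.

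Of the cGMP-gated channels and kinase substrates, 4 rose and 3 fell of 10 in ChAT IP against input (median -0.73). Kcnma1, the large-conductance potassium channel that cGMP kinase can act on, was at 2036 ± 404 CPM in IP and 349 ± 25 in input (2.55 ± 0.16, adjusted p = 1.88e-06). In Chrna5 IP against input 2 rose and 1 fell of 9 (median 0.22): Itpr1, the IP3 receptor, rose by 1.64 ± 0.13 (adjusted p = 4.53e-07), and Mrvi1, its cGMP kinase-linked partner, fell by 5.32 (adjusted p = 1.84e-05). Between Amigo1 and Epyc IPs Itpr1 was higher in Amigo1 (793 ± 124 against 203 ± 35 CPM, 1.98 ± 0.16, adjusted p = 3.01e-06). Cnga3, a cyclic nucleotide-gated channel, was at 0.57 ± 0.85 CPM in Amigo1 and 16 ± 1.3 CPM in Epyc (-4.56 ± 0.74, adjusted p = 0.0016); there 1 was higher and 2 were lower of 9 (median -0.46).

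Of the other guanylate cyclases and their peptides, 2 rose and 1 fell of 9 in ChAT IP against input (median -0.01). Npr1, a membrane cyclase that binds natriuretic peptides, was at 34.5 ± 11.3 CPM in IP and 4.12 ± 0.45 in input (3.04 ± 0.20, adjusted p = 2.51e-06). In Chrna5 IP against input 1 rose and 3 fell of 6 (median -0.98), the one being Npr3, the clearance receptor for those peptides (2.20 ± 0.32, adjusted p = 0.00015). Of the genes for nitric oxide synthesis and its partners, 5 rose and 9 fell of 24 in ChAT IP against input (median -0.38), among them Ddah1, which breaks down an inhibitor of the synthases (-2.31 ± 0.18, adjusted p = 6.35e-06). In Chrna5 IP against input 6 rose and 8 fell of 24 (median 0.00). Gch1, which makes the cofactor tetrahydrobiopterin, fell by 4.03 there (adjusted p = 4.5e-07). Markers of dopamine and serotonin neurons, which also use that cofactor, fell with it, from 1319 to 1387 CPM summed over 6 genes in input to 165 to 256 CPM in IP.

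The genes most like each member were sought over the 22 libraries on the long list, among 9460 genes of at least 10 CPM on average. These libraries fall into groups of line and fraction, so Pearson's r of log2(CPM + 0.5) mainly describes shared group levels. Closest to Nos1 were Dgkb (r = 0.98), Mn1 (0.98), Vstm2a (0.96), Mab21l1 (0.96) and Entpd3 (0.96). Over the 18 libraries on the middle list they were Chrm5 (0.98), Serpina3g (0.97), Pthlh (0.97), Kit (0.96) and Meis2 (0.96), none of them in the first list. Closest to Gucy1a3 were Kcnip1 (0.98) and Lrrn3 (0.97), to Gucy1b3 Nol4 (0.94), Rheb (0.94) and Ppp2cb (0.94), and to Gucy1a2 Camk4 (0.93), Rgs7bp (0.90) and Apbb2 (0.89). Closest to Nos1ap were Mkx, Cacng2 and Tox2 (0.97, 0.97 and 0.96), to Prkg1 Fam46c, Rpa2 and Eno2 (0.91, 0.88 and 0.87), and to Prkg2 Deptor, Raver2 and Camk1d (0.93, 0.92 and 0.92).

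Nicotine was compared with control within IPs of 1 line and 1 gene list. No member was called in any of the 3 lines. Calls were rare over all genes as well: 0% of 12276 genes in Amigo1 IPs, 0.00724% of 13810 in Epyc IPs and 0% of 14560 in ChAT IPs, with 1794, 1330 and 1135 genes at an unadjusted p under 0.05. DESeq2 called 967, 60 and 0 genes in the same comparisons and no member.

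In Amigo1 IPs, Nos1 was at 314, 535 and 589 CPM on nicotine water and at 961, 1000 and 524 CPM without (-0.71 ± 0.40, adjusted p = 0.49), so the groups overlapped through the pump pool. Gucy1a2 was at 432, 601 and 219 CPM against 151, 178 and 101 CPM (1.64 ± 0.51, adjusted p = 0.16). Gucy1b3 was at 57.6, 53.3 and 54.4 CPM against 114, 112 and 102 CPM (-0.90 ± 0.59, adjusted p = 0.57). Gucy1a2 and Gucy1b3 did not overlap between the groups, yet neither passed the test. Prkg1 stayed within the control range at 186, 177 and 170 CPM (-0.11 ± 0.44). Gucy1a3 was at 160, 338 and 167 CPM against 201, 195 and 146 CPM (0.39 ± 0.50, adjusted p = 0.81), and Nos1ap at 9.05, 34.5 and 69.8 CPM against 57.7, 47.9 and 37.5 CPM (-0.26 ± 0.95, adjusted p = 0.94). Prkg2 had 0 counts in all 3 nicotine IPs, where 3 counts would be 0.0997 to 0.206 CPM, and 65, 142 and 1 counts in the control IPs. It was too low to enter the test, and the pump pool with its 1 count cannot be told from the nicotine IPs at this depth. In all, 2 of 7 members did not overlap, as did 25.7% of the 12417 genes with at least 1 CPM, counts under 3 being taken as anywhere between 0 and 3. The median log2 difference of all genes was 0.14 in this comparison, and differences are to be read relative to it. Beside these values, Sst, the somatostatin gene, was at 14030 to 35530 CPM in the nicotine IPs and 3955 to 5202 CPM in the controls, astrocyte markers summed to 128 to 805 against 84.0 to 190 CPM, and all 8 mural cell markers and all 6 microglia markers were at 0 in at least 1 nicotine IP. The library numbers in the labels run from 1916 to 1919 for the nicotine IPs and from 762 to 884 for the controls, and saccharin was given with nicotine only; nicotine cannot be told apart from either.

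In Epyc IPs, Nos1 was at 108 and 82.4 CPM with nicotine pumps and 86.0 to 114 CPM without (-0.08 ± 0.19, 95% interval -0.44 to 0.29). Only 1 control pool had a pump, with saline, so the part of the pump in the values of this line was not tested. Prkg1 was the only member without overlap, at 17.6 and 6.83 CPM against 19.2 to 39.7 CPM (-1.31 ± 0.38, adjusted p = 0.40), where 12.8% of 12535 genes did not overlap. It was called in 1 of 7 fits without 1 library, the one without nicotine pump pool 1 (adjusted p = 0.046), which leaves a single nicotine library. Nos1ap, Gucy1a2, Gucy1a3, Gucy1b3 and Prkg2 differed by 0.08 to 0.38 with standard errors of 0.17 to 0.38.

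**Figure D5:**
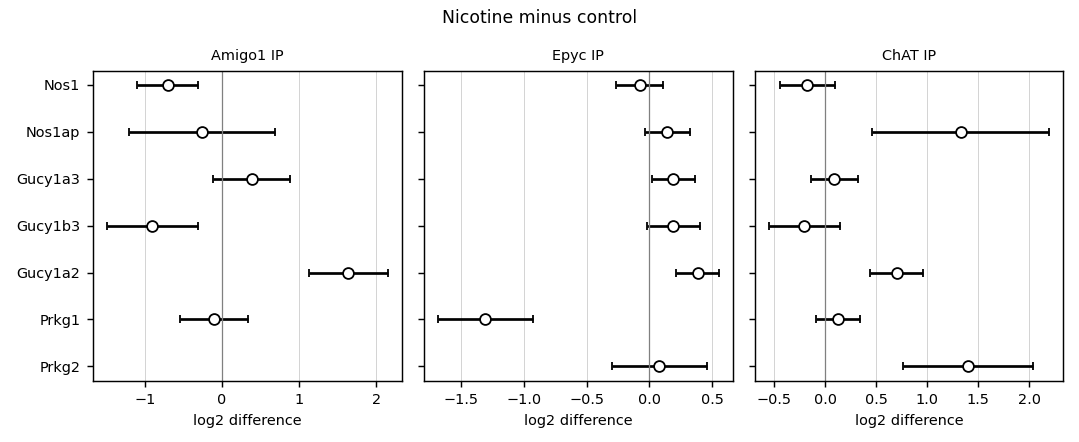
Log2 difference between nicotine and control IPs with its standard error for each member, in Amigo1 (3 against 3 libraries), Epyc (2 against 5) and ChAT IPs (3 against 2, on the middle list). All points are open, since no member had an adjusted p under 0.05 by edgeR, and Prkg2 has no point in Amigo1 IPs.

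In ChAT IPs on the middle list, Nos1 was at 15.8, 9.70 and 10.4 CPM on nicotine water and 14.5 and 12.8 CPM without (-0.18 ± 0.27, 95% interval -0.70 to 0.35), and Gucy1b3 and Prkg1 differed by -0.21 ± 0.35 and 0.12 ± 0.22. Gucy1a3 was at 1125, 707 and 981 CPM against 1048 and 730 CPM (0.09 ± 0.23). Gucy1a2 was at 128, 180 and 137 CPM against 114 and 71.6 CPM (0.70 ± 0.26, adjusted p = 0.53), and Prkg2 at 6.18, 26.7 and 12.0 CPM against 5.71 and 5.97 CPM (1.40 ± 0.64, adjusted p = 0.53). These 2 of 7 members did not overlap, as did 29.3% of 12417 genes. Nos1ap was at 3.25, 25.5 and 13.3 CPM against 4.55 and 6.99 CPM (1.33 ± 0.87, adjusted p = 0.55). The pool that was injected, 6.18 CPM for Prkg2 and 3.25 for Nos1ap, lay close to the injected saccharin pool at 5.71 and 4.55 CPM. Without it, Nos1ap and Prkg2 were called higher with nicotine (1.78 and 1.76, adjusted p = 0.025 and 0.029), in a fit of 2 against 2. Over all genes, fits of this comparison without 1 library called from 0 to 1522 genes, against 0 with all libraries, so member calls in such fits are to be read beside that. Beside this, oligodendrocyte markers summed to 102 CPM in the injected nicotine pool, 828 and 303 CPM in the other 2, and 126 to 162 CPM in the controls; IPN neuron markers summed to 28.4, 169 and 79.0 CPM against 15.8 to 35.2 CPM. Their part in the differences was not tested.

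The nicotine effects of the Amigo1 and Epyc lines were compared in 1 fit, in which 7.24% of 14290 genes were called. Of the 6 members tested in both lines, 0 were called by edgeR and 0 by DESeq2, and 2, Gucy1a2 and Gucy1b3, had an unadjusted p under 0.05. Their differences of effect were 1.26 ± 0.50 and -1.08 ± 0.46, and that of Prkg1 1.21 ± 0.59 (adjusted p = 0.15, 0.18 and 0.25). Without Amigo1 nicotine pool 4, Gucy1a2 was called (1.57, adjusted p = 0.014). Prkg2 entered that fit through libraries of the other groups and had 0 counts in every Amigo1 nicotine IP, so its difference is not given.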

How the data were processed

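Polysome-bound and whole-tissue RNA of pooled mice was sequenced from amplified cDNA, per the labels' protocols. The values the authors deposited are counts of reads for each gene symbol. Per the submitters' processing notes, the tools were STAR 2.3.0e, HTSeq and DESeq2 and the build mm10; the strand setting is not stated there or in the labels. Reads in no gene (8.46 to 27.3% per library) and reads without a unique place (20.3 to 57.0%) stayed out of library sizes. The symbols found in every file held 71.5 to 98.3% of counts.

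Tests used edgeR 4.0.16 (robust quasi-likelihood, TMM, filterByExpr with a minimum of 10 counts) in R 4.3.3, with Benjamini-Hochberg adjustment, fitted on all genes. A standard error is the log2 difference divided by the root of F, and a 95% interval is normal. DESeq2 1.42.0 was an alternative. Fits were tested on simulated counts. A gene at 0 lies below 3 counts, or 0.0495 to 0.436 CPM per library; this covers counting error only, since amplified reads carry no molecular identifiers. A replicate is a pool of mice. The baseline ChAT inputs hold opposite sides of the MHb, with 9 males per library, and may share mice. They were counted as separate replicates, and their independence was not tested. If they share mice, p-values of comparisons with the ChAT inputs rest on fewer independent pools than libraries. Pools of 1 line with the same number and the same number of animals were taken as the same mice, which was not tested. The deviations of IP and input correlated at 0.27 to 0.48 (Chrna5), 0.49 (ChAT), 0.11 to 0.15 (Amigo1) and 0.03 to 0.08 (Epyc) over 9502 genes. Mismatched pools were not correlated for reference, and in the ChAT line both pools give the same value by construction.

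Exon lengths and coordinates are from GENCODE M21 on GRCm38, and promoters from RefSeq on GRCm38.p6. Gucy1a3 and Gucy1b3 matched Gucy1a1 and Gucy1b1 through RefSeq synonyms. Members, lists and tests were chosen with earlier results of these data known. All 7 members entered every comparison, save Prkg2 in Amigo1 nicotine; of other pathway genes, those named were called with a log2 difference of at least 1, with at most 4 per list, in comparisons within 1 gene list. One gene among those most like Gucy1a3 is not reported here.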

Additional observations from a re-analysis of the deposited data

Results flagged for a closer look

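In groups of 4 or 5 libraries, 5 of 42 gene and group pairs had 1 library far from the others; chance alone gives about 1 in 20. Nos1ap was at 27.6 CPM in Amigo1 input baseline 2, above 24.3 to 24.7 CPM in the other 3. Gucy1b3 was at 178 CPM in Epyc IP saline pump 1, above 99.4 to 112 CPM in the 4 baseline IPs. Prkg2 was at 25.8 CPM in Epyc input saline pump 2, above 12.5 to 14.4 CPM. In ChAT IP baseline 1, Gucy1a2 was at 266 CPM, above 83.8 to 113 CPM, and Prkg2 at 22.4 CPM, above 9.00 to 9.96 CPM. Oligodendrocyte markers summed to 690 CPM in that library and 145 to 370 CPM in the other 3 baseline IPs, and their part was not tested.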

How the results depend on the processing

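When 1 library was left out, 964 member values stayed on the same side of the threshold, 11 gained a call and 27 lost it. None of the 378 values of called members turned direction, and 27 values of members that were not called did. Under the other alternatives (DESeq2, other size factors, no filter, all genes of a list, baseline libraries, paired pools, the term for the list), 533 stayed, 15 gained and 14 lost, and 6 values of called and 14 of uncalled members turned. In ChAT IP against input 4 members were called, not 7, in paired pools with the replicate block, without it, and with all 9 IPs and no term for the list, and Prkg1 turned to 0.10, 0.21 and 0.51. With that term, 3 members in place of 5 were called in Amigo1 IP against input, with Gucy1b3 at -0.10, and 1 in place of 5 in Epyc IP against input, with Nos1 at 1.73. Without it, Nos1 was at 0.81 in Chrna5 against Amigo1 IPs, and 5 members, not 1, were called in Chrna5 against Epyc IPs. In uninjected ChAT mice with the replicate block, 3 members were called with nicotine (Nos1 -3.18, Gucy1a2 1.46, Prkg1 1.47), but there nicotine IPs on the middle list met controls on the long one. Over all genes, the alternative fits of ChAT nicotine, this one among them, called from 0 to 975 genes, against 0 in the main fit. DESeq2 called 2 members, not 1, between the short and the long list. Leaving out 1 library gave 0 to 1 members in Chrna5 against Amigo1 IPs and 1 to 2 in Chrna5 against Epyc IPs. It gave 0 to 2 for ChAT nicotine and 1 to 2 between the short and the long list. For the difference of nicotine effects it gave 0 to 2, with Prkg2 included, which had 0 counts in every Amigo1 nicotine IP. The block changed 2 member calls in Amigo1 IP against input and none in the Chrna5 and Epyc lines.

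Counts over all genes moved by more than 1.5 times in several fits. ChAT IP against input fell from 7839 to 3401 called genes in paired pools without the block, Amigo1 IP against input from 4442 to 1382 and Epyc IP against input from 5072 to 1313 with the term; Chrna5 against Amigo1 IPs rose from 42 to 718 and against Epyc IPs from 31 to 1476 without it. Leaving out 1 library gave 777 to 4999 genes, against 2178, in Amigo1 against ChAT IPs and 459 to 3015, against 1034, for the difference of nicotine effects. Without TMM factors, 15 group levels moved by over 1 SD and 76 did not. Prkg2 had 0 counts in every Amigo1 nicotine IP, where 3 counts correspond to 0.0997 to 0.206 CPM. These libraries held 14550286 to 30105845 counts in the symbols found in every file, and the Amigo1 control IPs 6887062 to 20536347. The cause of the 0 counts and of the changes between fits was not tested.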
